A study of Homo sapiens with 7 samples.

Results

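Complement is a cascade of plasma proteins that tags cells for removal and can perforate them. The 9 genes described here code for parts of that cascade and for its brakes, and they are C3, CFB, C1R, C1S, SERPING1, CFI, CD46, CD55 and CD59. They were taken by symbol from the 57189 genes of the count table, and all 9 had enough counts to be among the 23124 genes tested. The measurements are RNAseq counts of RH30, an established cell line of alveolar rhabdomyosarcoma (RMS), a soft-tissue tumor of children. There were 4 samples of untreated cells and 3 of cells given BV6 for 24 h at a concentration of 5 µM. BV6 is a bivalent Smac mimetic, a small molecule that leads to the degradation of inhibitor of apoptosis proteins and activates NF-κB signaling. All samples are labeled as wild-type genotype and are of this 1 cell line, which the study's methods describe as carrying GFP and luciferase, so nothing here speaks for other RMS cells. BV6 replicates 2, 3 and 4 carry the same label (BC13, BC14 and BC25/27) as untreated replicates 2, 3 and 4, and untreated replicate 1 (BC11) stands alone. The labels do not say what BC stands for, and calling samples with the same BC label an experiment is a choice made here, so p-values measure the spread between these samples, which may be partly technical.

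Most complement in blood is made by the liver, but many other cells, fibroblasts and tumor cells among them, also transcribe complement genes. The classical pathway starts when C1q binds to a surface and the proteases C1r and C1s become active, and SERPING1 (C1 inhibitor) stops both. In every pathway C3 is then cleaved, and factor B (CFB) forms the protease that amplifies this step. Cells protect themselves with CD46, which helps factor I (CFI) to cut the deposited C3 and C4 fragments, with CD55, which takes apart the C3-cleaving enzymes, and with CD59, which blocks the membrane pore. Interferons and NF-κB are known to raise the transcription of several of these genes, CFB and C3 among them, and this comparison shows how they stood in cells treated with an agent that activates NF-κB.

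None of the 9 genes differed between BV6-treated and untreated RH30 cells in the quasi-likelihood test of edgeR, with p-values adjusted by Benjamini-Hochberg over all tested genes. The log2 fold changes lay between -0.44 (SERPING1) and 0.33 (C1S), 5 above 0 and 4 below, with a median of 0.02 against -0.01 for all tested genes. Among all tested genes, 0.45% had an adjusted p below 0.05 (0.394% higher and 0.0562% lower with BV6), so a count of 0 among 9 genes does not set them apart from other genes. None of the 9 had an unadjusted p below 0.05 either, against 8.39% of all tested genes. In the Wald test of DESeq2, 0 of the 9 had an adjusted p below 0.05 (0.94% of the 43421 genes with any count) and 0 an unadjusted one (5.26%). That set was not filtered on low counts before the test. DESeq2 applied its own filter on mean count in the adjustment, and a gene given no adjusted p counted as not called. These 2 shares therefore have another base than those above. What the data give beyond that count is the size of change that each gene could still have had. For 6 of the 9 genes (C3, CFB, C1R, CD46, CD55 and CD59) the 95% interval of the fold change lay within 2-fold in both directions, as it did for 69.8% of all tested genes. These intervals hold for 1 gene each and were not widened for the number of genes.

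Library totals were 54070030 to 77220882 counts. The smallest number taken as detected, 3 counts, corresponds to 0.0389 to 0.0557 CPM, the read count of a gene scaled to a common normalized library size. This is a floor that covers counting error only. Of 12 RMS markers, 9 were tested and none was called in either direction. DES (451 to 865 CPM), MYOD1 (157 to 474 CPM) and MYOG (78.8 to 226 CPM) were high over the 7 samples, while TFAP2B (1 to 6 counts), CDH3 (3 to 15 counts) and MYF6 (0 to 5 counts) were near absent, the first 2 of which are used as markers of the alveolar type. Their summed level was 2701 to 3554 CPM in untreated and 1972 to 3365 CPM in treated samples. Of 8 hepatocyte markers, 5, ALB and APOA1 among them, had too few counts to be tested, and the summed level of the list was 0.779 to 2.25 CPM in untreated and 1.68 to 2.58 CPM in BV6-treated samples. The 10 leukocyte markers summed to 22.4 to 31.3 CPM in untreated and 19.9 to 32.4 CPM in treated samples, and none was called. Most of that sum came from CSF1R (509 to 1016 counts a sample) and NKG7 (297 to 853 counts), while PTPRC had 11 to 58 counts. Markers of endothelial cells and fibroblasts summed to 170 to 197 CPM in untreated and 143 to 175 CPM in treated samples, also with none called. Most of that sum came from THY1 (71.7 to 99.7 CPM) and PECAM1 (25.0 to 68.2 CPM), while CDH5 (5 to 16 counts) and DCN (0 to 12 counts) were too low to be tested. The part of any of these lists in the values of the complement genes was not tested. In bulk RNA, a change per cell and a change in the share of cells that transcribe a gene cannot be told apart.

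Promoter sequences are shown here because NF-κB and interferon-activated factors bind known motifs, and the members differ in whether the bases before their start hold them. Windows of 250 bases before the start, from a table of RefSeq promoters (GRCh38.p14), were at hand for 6 of the 9 members, 11 windows in all, and those of C3, C1S and SERPING1 were not analysed here. Both strands were searched for the κB decamer, for the interferon-stimulated response element (ISRE, GAAANNGAAA) and for the interferon-γ-activated site (GAS, TTCNNNGAA). Of 35116 promoter windows of this length, 9.96% held a κB decamer, 3.02% an ISRE and 6.57% a GAS. The window of CFB held 1 of each, which 8 of the 35116 windows did. No other member held a κB decamer or an ISRE, while a GAS stood in windows of CD59 and C1R. Of the genes called higher with BV6, only IRF1, NFKB2 and ITGAM were searched, and they differed in the same way. IRF1 held a κB decamer and a GAS, NFKB2 held κB decamers in 2 of its 3 windows, and ITGAM held none of the 3 motifs. In the lines that follow, the capitals in CFB, IRF1 and CD59 mark these motifs. Those in CD46, which held none of the 3, mark the GC box GGGCGG as read on the other strand (CCGCCC). The GC box was found on either strand in 42.6% of windows. A match is a run of letters and not a measured binding site.
CFB, chr6:31945845-31946011, plus strand: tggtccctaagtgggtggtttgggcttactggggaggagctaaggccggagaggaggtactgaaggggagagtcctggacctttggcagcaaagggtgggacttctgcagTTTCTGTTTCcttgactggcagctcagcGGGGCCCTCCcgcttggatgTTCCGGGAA
IRF1, chr5:132490778-132491023, minus strand: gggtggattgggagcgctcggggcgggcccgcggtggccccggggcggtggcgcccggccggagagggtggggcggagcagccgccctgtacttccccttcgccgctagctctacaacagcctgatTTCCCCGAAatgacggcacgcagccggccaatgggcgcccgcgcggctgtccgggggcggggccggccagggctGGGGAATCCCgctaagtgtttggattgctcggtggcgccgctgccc
CD59, chr11:33736480-33736729, minus strand: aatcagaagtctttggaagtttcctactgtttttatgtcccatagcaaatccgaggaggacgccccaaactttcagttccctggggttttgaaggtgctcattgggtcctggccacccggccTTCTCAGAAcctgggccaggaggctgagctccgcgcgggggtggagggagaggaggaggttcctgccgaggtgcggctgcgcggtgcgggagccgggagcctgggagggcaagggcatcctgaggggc
CD46, chr1:207751788-207752036, plus strand: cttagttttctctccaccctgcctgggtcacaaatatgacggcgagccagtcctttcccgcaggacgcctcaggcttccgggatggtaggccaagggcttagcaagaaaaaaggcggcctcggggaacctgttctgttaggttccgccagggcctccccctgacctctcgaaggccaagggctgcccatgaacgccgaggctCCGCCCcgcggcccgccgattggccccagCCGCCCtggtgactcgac
Each stretch is the part of the window that comes before annotated exons, and that of CFB is extended to the last of its 3 motifs. Thus 37 of the bases shown for CFB fall in annotated exons of GENCODE release 44, 29 of them in an untranslated region. Which gene these exons belong to was not recorded. The other stretches hold no base of an annotated exon.

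Of the 9 genes, CD59 and CD46 stood far above the rest, as the plot of levels per kilobase of exon shows. CD59 had 14.3 ± 1.33 CPM per kilobase (SD, n = 4) and CD46 8.20 ± 0.497 in untreated cells, above 80.9% and 67.7% of 14083 tested protein-coding genes. CD55 followed with 2.33 ± 0.393 and C1R with 1.90 ± 0.497 CPM per kilobase, and these neighbours overlapped over the 7 samples. CFB (0.885 ± 0.113) and SERPING1 (0.563 ± 0.172) also overlapped, as did CFI (0.153 ± 0.0390), C1S (0.0921 ± 0.0433) and C3 (0.0480 ± 0.00923), which closed the order. The level of C3, the central protein of the cascade, was higher than in only 4.95% of those genes. With the longest transcript in place of all exons as the length, SERPING1 moved above CFB, and CD59 and CD46 overlapped. On that length, C3 in untreated cells was above 8.26% of those genes, CD46 above 75.9% and CD59 above 80.2%. CD46, CD55 and CD59 together made up 85.0 to 89.3% of the summed level per kilobase of the 9 genes in untreated samples and 87.2 to 89.6% in BV6-treated samples. These ranges overlapped (exact permutation test, two-sided, p = 0.343, n = 4 and 3).

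**Figure D1:**
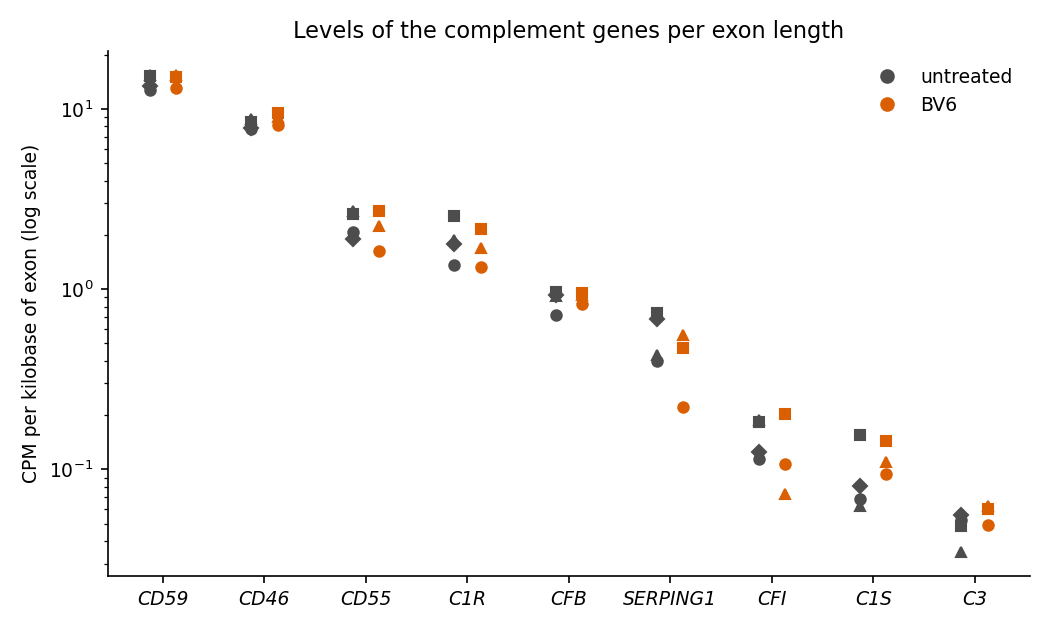
Level of each of the 9 complement genes in CPM per kilobase of annotated exon on a log scale, with untreated samples in grey and BV6-treated samples in orange and 1 symbol for each replicate number. CD59 and CD46 lie highest and C3 lowest in both conditions, and the orange and grey points of each gene overlap.

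C3 (chr19:6677704-6730562, minus strand) supplies the fragment that coats a target. In untreated replicates 1 to 4 it had 0.649, 0.606, 0.564 and 0.404 CPM, and in BV6 replicates 2 to 4 it had 0.570, 0.701 and 0.724 CPM, which is 25 to 50 counts a sample. BV6 replicates 3 and 4 were above every untreated sample and BV6 replicate 2 was not, so the groups overlapped. Its log2 fold change was 0.26 (95% interval -0.36 to 0.87, adjusted p = 0.827, edgeR, Benjamini-Hochberg). It was 0.13 without untreated replicate 4. The SD of the untreated samples was 19.2% of their mean, and counting error would give 16.7% if each count were an independent fragment. C3 shares 11.7% of its exonic bases with ENSG00000276980, a noncoding RNA gene on the same strand.

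CFB (chr6:31945650-31952086, plus strand) is the protease of the alternative pathway. It had 4.96, 3.81, 5.14 and 4.88 CPM in untreated replicates 1 to 4 and 4.40, 5.09 and 4.94 CPM in BV6 replicates 2 to 4. All 3 treated values lay within the untreated range. With a log2 fold change of 0.03 (95% interval -0.34 to 0.41), a rise above 1.33-fold or a fall below 0.789-fold lay outside the interval (adjusted p = 0.969, edgeR, Benjamini-Hochberg). In the same samples IRF1 rose with a log2 fold change of 1.07 (95% interval 0.66 to 1.49). That call was lost in 6 of 7 fits without a sample and held with the replicate block and in the DESeq2 Wald test. CFB shares 42.3% of its exonic bases with ENSG00000244255, an annotated gene on the same strand that spans part of C2 and CFB (chr6:31927698-31952048), so its counts are uncertain where the counting split or doubled such reads.

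C1R (chr12:7080214-7092540, minus strand) and C1S (chr12:6988259-7071032, plus strand) code for the paired proteases of the first component. C1R had 10.3, 7.91, 14.9 and 10.9 CPM in untreated replicates 1 to 4 and 7.75, 12.5 and 9.82 CPM in BV6 replicates 2 to 4. Each treated sample was a little below the untreated sample of its experiment, by 0.03, 0.25 and 0.15 on the log2 scale. The overall log2 fold change was -0.13 (95% interval -0.66 to 0.39, adjusted p = 0.897, edgeR, Benjamini-Hochberg). C1R shares 672 exonic bases (11.6%) with its neighbour C1RL on the same strand, and C1RL had a log2 fold change of -0.05.

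C1S, whose level per kilobase overlapped that of C3, had 0.675, 0.570, 1.29 and 0.517 CPM in untreated replicates 1 to 4 and 0.784, 1.19 and 0.910 CPM in BV6 replicates 2 to 4. Untreated replicate 3 was the highest of all 7 samples, and the treated values fell inside the untreated range. Its log2 fold change was 0.33 (95% interval -0.46 to 1.13, adjusted p = 0.826, edgeR, Benjamini-Hochberg), which leaves room for a 2.18-fold rise. The log2 fold change was 0.71 without untreated replicate 3 and 0.15 without BV6 replicate 3. Per kilobase, C1R exceeded C1S in every sample, by 21.8, 19.8, 16.4 and 30.2 times in untreated replicates 1 to 4 and by 14.1, 15.0 and 15.4 times in BV6 replicates 2 to 4. The 2 groups did not overlap in this ratio, at the smallest p the design allows (0.0571, exact permutation test, two-sided, adjusted p = 0.286 over 5 ratios, n = 4 and 3). With 32 to 78 counts of C1S a sample, the ratio carries the counting error of that gene.

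SERPING1 (chr11:57597387-57619171, plus strand), the inhibitor of C1r and C1s, had 4.97, 2.89, 5.31 and 3.12 CPM in untreated replicates 1 to 4 and 1.60, 3.39 and 4.01 CPM in BV6 replicates 2 to 4. BV6 replicate 2 was the lowest of the 7 samples and the other treated values were inside the untreated range. Against the untreated sample of the same experiment, SERPING1 differed by -0.85 and -0.65 in experiments 2 and 3 but by 0.36 in experiment 4, all on the log2 scale. Its log2 fold change of -0.44 had a wide interval (95% interval -1.20 to 0.32, adjusted p = 0.766, edgeR, Benjamini-Hochberg). It was -0.13 without BV6 replicate 2 and -0.70 without BV6 replicate 4. In the fit on condition SERPING1 had the smallest p of the 9 genes, whereas with the replicate block CD55 and in the exact permutation test C3 did. Over the 7 samples, the 3 genes whose log2 CPM followed it most closely among 23123 were GIPR, AC025809.2 and AC018413.1, with Pearson's r of 0.989, 0.982 and 0.980. As 122 genes had r above 0.9, these are a description of 7 samples only.

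CFI (chr4:109731008-109802150, minus strand) codes for the protease that inactivates deposited C3b and C4b. It had 0.662, 0.606, 0.979 and 1.00 CPM in untreated replicates 1 to 4 and 0.570, 1.08 and 0.390 CPM in BV6 replicates 2 to 4. The treated samples held both the highest and the lowest of the 7 values, and BV6 replicate 4, with 21 counts, was lower than its untreated partner by 1.36 on the log2 scale. The log2 fold change was -0.25 (95% interval -1.09 to 0.59, adjusted p = 0.878, edgeR, Benjamini-Hochberg), and it was -0.75 without BV6 replicate 3 and 0.03 without BV6 replicate 4. CFI shares 29.4% of its exonic bases with ENSG00000285330 on the same strand.

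CD46 (chr1:207752037-207795513, plus strand) was measured with 6708 to 9408 counts a sample. It had 122, 120, 131 and 136 CPM in untreated replicates 1 to 4 and 126, 147 and 140 CPM in BV6 replicates 2 to 4. Each treated sample was above the untreated sample of its experiment, by 0.08, 0.17 and 0.04 on the log2 scale, while the groups overlapped. Its log2 fold change was 0.12 (95% interval -0.11 to 0.34, adjusted p = 0.787, edgeR, Benjamini-Hochberg), so that a rise above 1.27-fold lay outside the interval.

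CD55 (chr1:207321519-207386804, plus strand) had 19.6, 21.4, 26.8 and 27.8 CPM in untreated replicates 1 to 4 and 16.7, 27.8 and 23.1 CPM in BV6 replicates 2 to 4. BV6 replicate 2 was the lowest and BV6 replicate 3 matched the highest untreated sample. Its log2 fold change was -0.08 (95% interval -0.52 to 0.36, adjusted p = 0.932, edgeR, Benjamini-Hochberg).

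CD59 (chr11:33703010-33736479, minus strand) was the steadiest of the 9 between partners. It had 142, 135, 161 and 164 CPM in untreated replicates 1 to 4 and 138, 159 and 163 CPM in BV6 replicates 2 to 4. The largest difference between a treated sample and its untreated partner was 0.0257 on the log2 scale. The log2 fold change was 0.02 (95% interval -0.23 to 0.27, adjusted p = 0.968, edgeR, Benjamini-Hochberg), which places a change beyond 1.21-fold upward or 0.855-fold downward outside the interval.

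**Figure D2:**
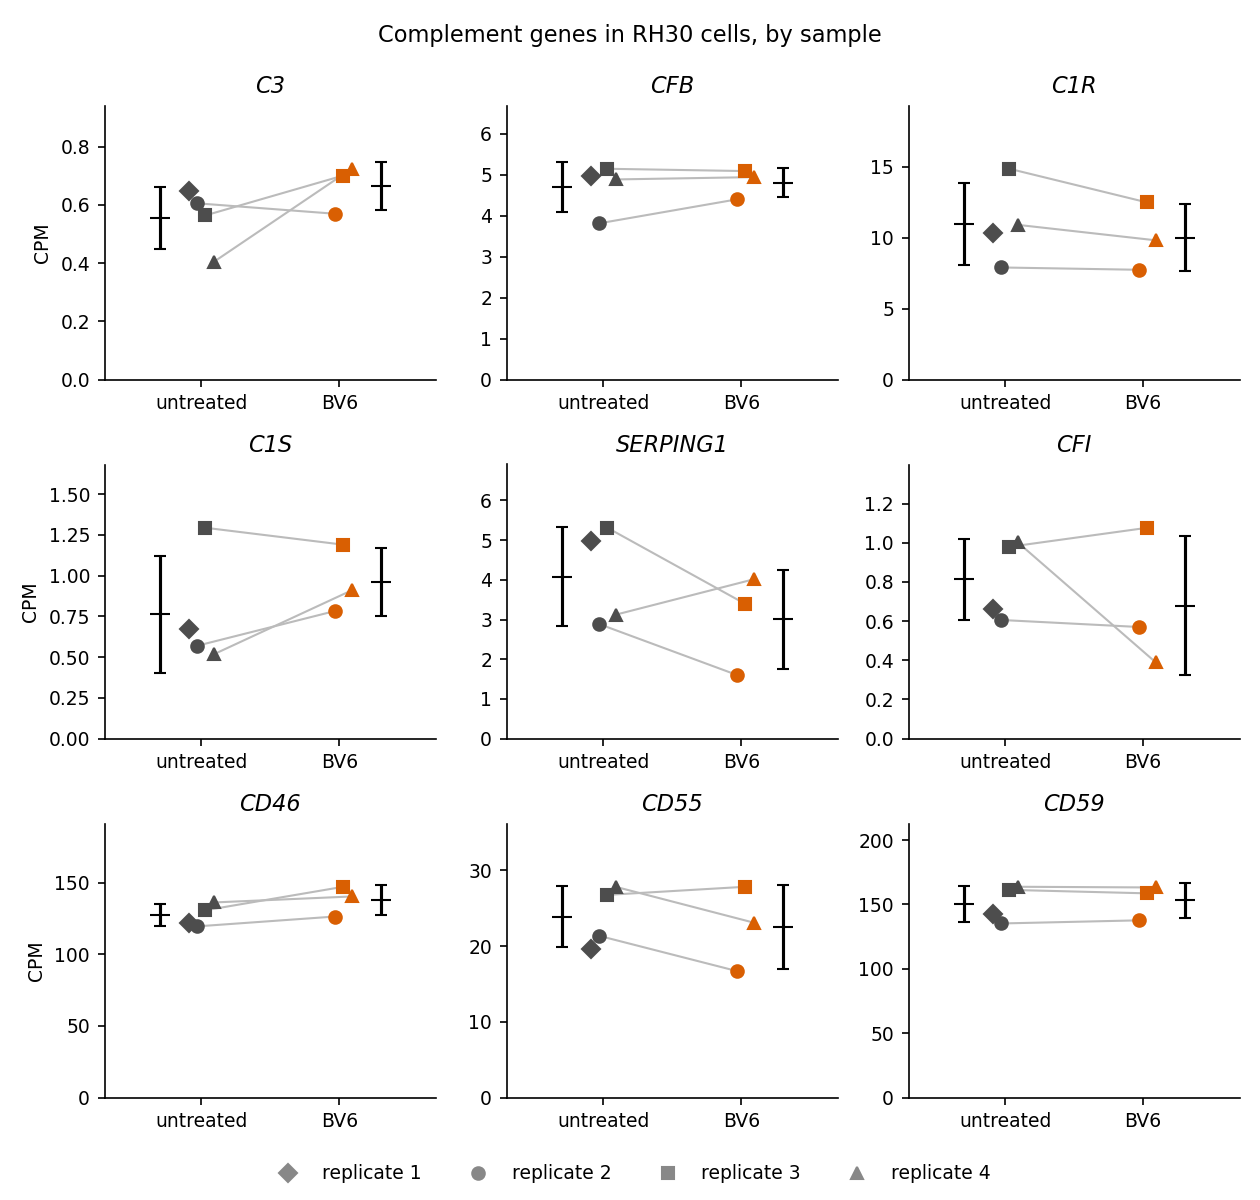
CPM of the 9 complement genes in each sample, untreated in grey and BV6-treated in orange, with 1 symbol for each replicate number, grey lines joining samples of the same experiment, and the mean with SD at the sides (n = 4 and 3). In every panel the treated and untreated points overlap, and CD46 is higher with BV6 and C1R lower in all 3 joined pairs.

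Across the 9 genes, no gene had treated and untreated samples that did not overlap, a pattern seen in 8.83% of all tested genes. Only CD46 (higher) and C1R (lower) differed in the same direction in all 3 experiments, and 33.3% of all tested genes did so in 1 direction or the other. Gene by gene, the two-sided exact permutation test on log2 CPM gave p between 0.171 and 0.971, where 4 against 3 samples allow 0.0571 at the lowest. Adding the replicate number as a block left all 9 uncalled, against 0.943% of all tested genes called, and 0 of the 9 had an unadjusted p below 0.05 (11.4% of all tested genes). The blocked intervals again lay within 2-fold for 6 genes (73.4% of all tested genes), with SERPING1 (-0.95 to 0.21) now inside and C3 (-0.38 to 1.08) outside. That of CD55 became narrower, at -0.47 to 0.10 around a log2 fold change of -0.19.

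**Figure D3:**
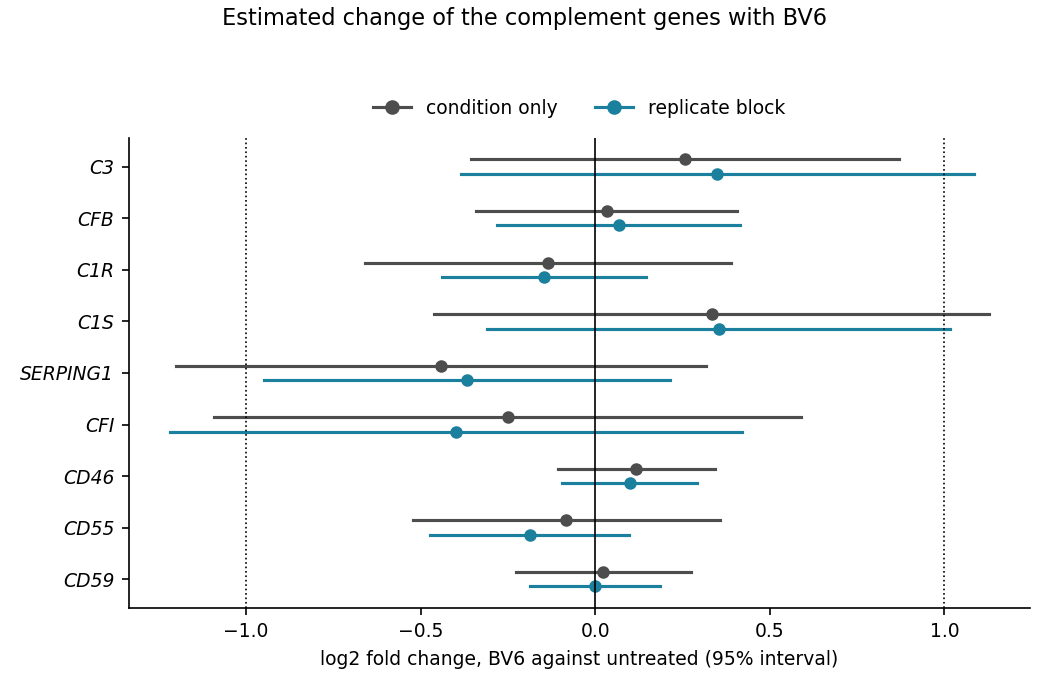
Log2 fold change of each complement gene with its 95% interval, from the fit on condition only (grey) and the fit with the replicate block (blue), with dotted lines at a 2-fold change. Every interval crosses 0, those of CD46 and CD59 are the narrowest, and only C3, C1S, SERPING1 and CFI reach a dotted line in at least 1 fit.

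The levels of the members were also compared between samples that carry different BC labels. For 7 of the 9 genes, C3 and CFI being the others, the range of the 3 experiment means was wider than the largest difference with BV6 inside any experiment, as it was for 43.3% of 22988 tested genes with counts in all of these samples. C1R averaged 7.83, 13.7 and 10.4 CPM in experiments 2, 3 and 4, a 1.74-fold range, and CD55 averaged 19.0, 27.3 and 25.5 CPM. SERPING1 (2.24, 4.35 and 3.57 CPM) and C1S (0.677, 1.24 and 0.714 CPM) were likewise lowest in experiment 2 and highest in experiment 3. A test of the experiment term, chosen after the data had been seen, called none of the 9 (adjusted p = 0.136 for C1R and 0.184 for CD55, edgeR, Benjamini-Hochberg), against 0.285% of all tested genes. Both had an unadjusted p below 0.05, as did 20.8% of all tested genes.

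The wider pathway list held 52 other complement genes, of which 30 were tested. The remaining 22 had few counts, and they included the 3 chains of C1q (at most 24 counts in any sample), MBL2, C6, C8A, C8B and both chains of C4BP. Of the 30, 1 was called higher and none lower, 11 had a log2 fold change above 0 and 19 below, and the median was -0.18. Among all 23124 tested genes, 0.394% were called higher and 0.0562% lower. Their log2 fold change was above 0 for 11020 and below for 12104, with a median of -0.01. The gene called among the 30 was ITGAM, a subunit of complement receptor 3, which binds fragments of C3. It had 0.532 ± 0.144 CPM in the untreated group (SD, n = 4) and rose 22.1-fold, to 11.7 ± 3.17 CPM (SD, n = 3, log2 fold change 4.46, adjusted p = 0.000445, edgeR, Benjamini-Hochberg). Its partner chain ITGB2 had 36.8 ± 5.12 CPM in untreated and 25.0 ± 9.36 CPM in treated samples (log2 fold change -0.56, adjusted p = 0.559 by the same test). ITGAX, the subunit that forms complement receptor 4 with ITGB2, had 1.15 ± 0.537 and 4.44 ± 2.68 CPM, a log2 fold change of 1.94 that passed with the replicate block (adjusted p = 0.018) and not without it (adjusted p = 0.187, both from edgeR, by Benjamini-Hochberg). C3AR1, the receptor for the fragment C3a, had 9.38 ± 2.05 and 5.74 ± 1.21 CPM without overlap, with an adjusted p of 0.346 without the block and 0.0539 with it (edgeR, Benjamini-Hochberg). Treated and untreated samples did not overlap for 5 of the 30 genes (ITGAM, ITGAX, C3AR1, C7 and CSMD3), against 8.83% of all tested genes.

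Components of the cascade outside the 9 genes gave no call. C2, the classical counterpart of CFB, had 70.1 ± 13.6 and 57.9 ± 15.2 CPM (log2 fold change -0.28). Of the fourth component, C4A had a log2 fold change of -0.22 and C4B of -0.24, and the counts of these near-identical copies are uncertain. CFD and CFP, which serve the alternative pathway, had -0.51 and -0.35. In the terminal pathway, C7 had 8 to 13 counts in untreated and 21 to 46 counts in treated samples, a log2 fold change of 1.63 without overlap between the groups (95% interval 0.69 to 2.57, adjusted p = 0.21, edgeR, Benjamini-Hochberg). The log2 fold changes of C5 (0.12), C8G (0.68) and C9 (-0.01) did not pass.

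Among the soluble regulators, CLU, which binds the forming pore in solution, had 84.5 ± 12.1 and 60.1 ± 12.1 CPM (log2 fold change -0.49, adjusted p = 0.399, edgeR, Benjamini-Hochberg), and CFHR3 had a log2 fold change of -0.34. None of the tested soluble regulators was called. Among membrane regulators, CSMD1 had 27.4 ± 7.53 CPM in untreated and 13.8 ± 7.1 CPM in treated samples. Its log2 fold change of -0.99 passed with the replicate block (adjusted p = 0.018) but not in the fit on condition alone (adjusted p = 0.406, edgeR, Benjamini-Hochberg). CSMD3 had a log2 fold change of -0.47 and CR1 of 0.47.

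**Figure D4:**
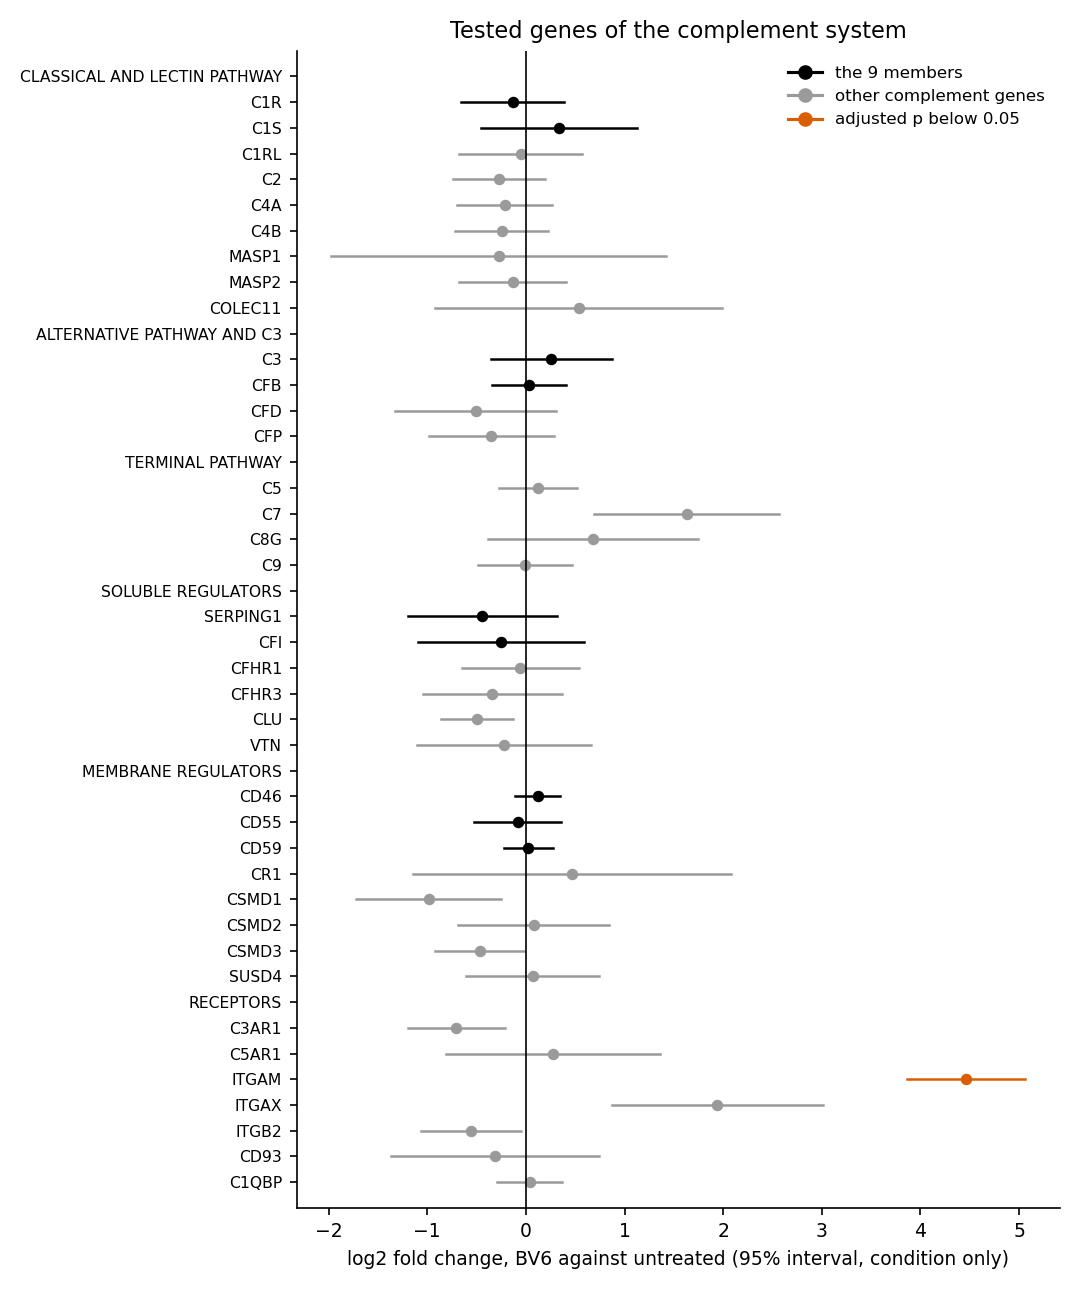
Log2 fold change with 95% interval (condition only) of 38 tested complement genes, grouped by role, with the 9 members in black, the other genes in grey and genes with an adjusted p below 0.05 in orange. ITGAM, at 4.46, is the only orange point, and all 9 black intervals cross 0.

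Of 28 factors, cytokines and receptors that act on complement transcription, 21 were tested, with a median log2 fold change of 0.29 against -0.01 for all tested genes. Called higher were NFKB2, from 77.4 ± 16.1 to 246 ± 61.0 CPM (log2 fold change 1.67, adjusted p = 0.011), and IRF1, from 17.5 ± 3.24 to 36.8 ± 8.27 CPM (adjusted p = 0.0478, both from edgeR, by Benjamini-Hochberg). None was called lower, while 0.394% of all tested genes were called higher and 0.0562% lower. The call of NFKB2 held in 6 of 7 fits that each left out a sample, and without untreated replicate 4 its adjusted p was 0.0536 (edgeR, Benjamini-Hochberg). That of IRF1 held in 1 of these 7 fits, the one without untreated replicate 2. Without any other single sample its adjusted p was 0.0594 to 0.168 (edgeR, Benjamini-Hochberg), and with RLE factors its adjusted p was 0.0522. The call of IRF1 held with the replicate block (adjusted p = 0.00801) and with no filter (adjusted p = 0.00265, both from edgeR, by Benjamini-Hochberg). It also held in the DESeq2 Wald test (adjusted p = 0.000145). IRF2 (log2 fold change 0.88) and IL6ST (0.51), the shared receptor chain of the IL-6 family, did not pass in the fit on condition (adjusted p = 0.0722 and 0.181, edgeR, Benjamini-Hochberg). Both were among the genes of this list that did not overlap between groups, as 8.83% of all tested genes did not. IRF2 passed in the DESeq2 Wald test (adjusted p = 0.000458) and with no filter (adjusted p = 0.0218, edgeR, Benjamini-Hochberg), and IL6ST passed in neither. With the replicate block, 4 of the 21 were called higher, NFKB1 and RELB being the additional genes (adjusted p = 0.0454 and 0.0322, edgeR, Benjamini-Hochberg). Among all 23124 tested genes, the block gave 150 called higher and 68 lower, 0.943% together. Transcripts of IL6, OSM, IFNG, IFNB1, TNF and IL1B, cytokines known to induce complement genes, had too few counts to be tested.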

How the data were processed

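RNAseq counts of 7 RH30 samples were used. The authors prepared stranded poly(A) libraries, mapped paired-end reads to GRCh38 with STAR (version 2.6.1d, per the processing notes) and deposited raw counts per gene from a union model of isoforms. The counting program, its strand setting, its treatment of reads on several genes and its handling of read mates are not given in the sources used here. The totals exceed the reads per library that the methods state, so counting errors here may be too small. From these counts, edgeR 4.0.16 in R 4.3.3 (filterByExpr with a minimum count of 10, TMM, glmQLFit and glmQLFTest on condition) tested 23124 genes, with Benjamini-Hochberg adjustment and 95% intervals computed from each gene's F statistic. A call is an adjusted p below 0.05. Alternatives were the replicate block, DESeq2 1.42.0, limma-voom (limma 3.58.1), limma on log2(CPM + 1), RLE factors, other filters and leaving out samples. The scripts were tested on simulated data. Samples with the same BC label deviated together from the means of the 3 shared labels (r = 0.515, 0.322 and 0.197 across 23124 genes, at most 0.132 between labels), so the block is given beside results. With untreated replicate 1 in the means, r was 0.462, 0.438 and 0.0847, and up to 0.278 between labels, so the pairing of replicate 4 is uncertain. Exact permutation tests used scipy 1.17.1. Coordinates and exon lengths are from GENCODE release 44, matched by symbol. Named are the 9 members, called genes and those with the smallest p of each fixed list, and genes overlapping a member, of which those sharing most exonic bases with C3, CFB, C1R and CFI are given and the rest left out. RELB and NFKB1 were added after their values were seen, and 1 gene of the fixed lists is not reported here. Members and lists were chosen with earlier results of these data known.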

Additional observations from a re-analysis of the deposited data

How the results depend on the processing

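None of the 9 complement genes was called under the DESeq2 Wald test, limma-voom, limma on log2(CPM + 1), no filter, a filter of at least 10 counts per sample, RLE factors, the replicate block or without any 1 of the 7 samples. Of 126 member values under these settings, 117 kept their direction. With the replicate block, CD59 changed from 0.02 to -0.00118 on the log2 scale. The other 8 reversals came from leaving out a sample, with ranges of -0.0575 to 0.10 for CFB, -0.32 to 0.0461 for C1R, -0.75 to 0.0294 for CFI, -0.26 to 0.10 for CD55 and -0.0270 to 0.10 for CD59. Without reversal, the ranges were -0.70 to -0.13 for SERPING1, 0.15 to 0.71 for C1S and 0.13 to 0.36 for C3. Of the other complement genes, 1 was called in the fit on condition and in all 7 fits without a sample, 2 (ITGAM and ITGAX) with DESeq2 and with no filter, and 3 with the replicate block (ITGAM, ITGAX and CSMD1). All genes called numbered 104, against 408 with DESeq2, 242 with no filter, 218 with the replicate block and 38 to 89 without a sample. Without untreated replicates 1, 2, 3 and 4 they numbered 41, 65, 38 and 44, and without BV6 replicates 2 and 4 they numbered 57 and 53. The cause was not tested. C3, C1S and CFI had 21 to 78 counts a sample, and the intervals of C1S, CFI and SERPING1 in the fit on condition reached beyond 2-fold. In untreated samples the SD was 19.2%, 47.0% and 25.5% of the mean for C3, C1S and CFI. Counting error would give 16.7%, 14.4% and 13.9% if each count were an independent fragment. What sets the widths of the intervals was not tested.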
